A study of Mus musculus with 10 samples.

Results

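Atad3a and 9 genes of the mitochondrial nucleoid were followed in the cortex of Atad3 nKO mice and of control littermates. The 10 genes were taken by name from a list of the targeted gene and of proteins that replicate, transcribe and package mitochondrial DNA, out of 24972 genes in the deposited gene tables. All 10 passed the filter on low counts, which kept 14378 genes. The nKO group held 5 male mice of genotype Atad3 nKO and the control group 5 male littermates labelled Atad3 control, all C57BL/6 and aged 2.5 months. What nKO abbreviates, the driver line, the deleted exons and any further allele are not given in the labels for either group. Mice were perfused with cold PBS, cortices were frozen, and libraries were made with a stranded total RNA kit. Each library was 1 animal, so the spread below holds differences between animals and between library preparations together. The design does not separate these.

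Mitochondrial DNA is a small circular genome that is present in many copies per cell and is packed with protein into nucleoids that sit against the inner membrane. TFAM coats and bends this DNA, the polymerase gamma holoenzyme copies it behind the helicase Twinkle, and POLRMT transcribes it with TFB2M and TFAM. ATAD3A is an AAA ATPase anchored in the inner membrane, and it has been found close to nucleoids, which is why it is set beside them here. All of these proteins are encoded in the nucleus, translated in the cytosol and imported. Transcripts of the mitochondrial genome itself were not analysed here.

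The genes lie apart in the genome, and what their promoters share was read from their sequences. Promoter windows of 300 bases (250 before to 50 after a start site; RefSeq, GRCm38.p6, the assembly of mm10) were listed for 8 of the 10 genes; Atad3a and Top1mt had no entry. The ETS core CCGGAAG, the letters that factors such as GABP (nuclear respiratory factor 2) bind, was searched on both strands. It was present in 6 of these 8 genes, against 9.93% of 27025 genes with a promoter in the table. That background, also used for the NRF1 motif below, includes genes below the count filter, which all 10 genes passed. The share among tested genes was not computed. The stretches around each match are shown because this motif is the feature that most of these genes have in common; each is written 5′ to 3′ on the strand of its gene, and the capitals mark the motif or its reverse complement.

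Tfam: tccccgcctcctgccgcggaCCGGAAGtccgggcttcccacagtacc
Polg: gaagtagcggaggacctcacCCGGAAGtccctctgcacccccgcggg
Ssbp1: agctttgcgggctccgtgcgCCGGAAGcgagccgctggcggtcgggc
Polrmt: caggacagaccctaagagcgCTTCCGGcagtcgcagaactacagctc
Polg2: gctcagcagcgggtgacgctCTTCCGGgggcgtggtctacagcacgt
Twnk: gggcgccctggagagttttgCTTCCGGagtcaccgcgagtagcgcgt

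These stretches lie at chr10:71238065-71238111 (minus strand, Tfam), chr7:79466285-79466331 (minus strand, Polg), chr6:40471401-40471447 (plus strand, Ssbp1), chr10:79746598-79746644 (minus strand, Polrmt), chr11:106779540-106779586 (minus strand, Polg2) and chr19:45006472-45006518 (plus strand, Twnk). Distances were counted from the start site of the window, which lies inside the gene's full annotated span given below for Tfam, Polg, Ssbp1 and Polrmt. The match began 29 bases before that start site in Polg2, 38 bases before it in Polg, 43 bases in Polrmt and 47 bases in both Tfam and Ssbp1. Twnk, which has 2 listed start sites, held matches at 66 and 110 bases before the one inside its span. Mgme1 and Tfb2m held no match in their windows. The NRF1 motif, which reads GCGC, then A and any base, then GCGC, was also searched on both strands and was present in 1 of the 8 genes, Polrmt, against 5.19% of genes. Its 2 matches there overlap each other; the first, which begins 6 bases before the start site at chr10:79746558-79746607 (minus strand), is shown because Polrmt also stood apart in its counts.

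Polrmt: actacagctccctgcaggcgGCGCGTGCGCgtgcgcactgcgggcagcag

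Both motifs were chosen with these sequences in view, and a match describes letters and not a bound site.

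The libraries held 14812639 to 19097795 estimated counts in nKO and 16768382 to 24161361 in controls. Markers of cortical excitatory neurons summed to 2226 to 2484 TPM in nKO and 1639 to 2360 TPM in controls, and choroid plexus markers to 3.14 to 3.58 TPM in nKO and 2.04 to 5.72 TPM in controls. Blood markers summed to 61.9 to 203 TPM in nKO and 86.4 to 248 TPM in controls, with 3 of 4 tested markers lower and a median log2 fold change of -0.67, the farthest from 0 of the marker lists. No marker was called in any list, and no listed marker of any of 11 cell types or regions was at 0 in all libraries. Levels in TPM are divided by effective length, whereas CPM are scaled for library size with TMM factors and not for length. On the first principal component, with 33.6% of the variance, nKO 4 (29.8) and control 1 (-46.8) were the ends. Control 3 (23.5) lay next to nKO 4. The libraries also differed with base composition, most of all nKO 4 and control 1. For each tested gene, the log2 CPM of a library was set against the mean of the other libraries of its group. In the highest quartile of transcript GC content, the median of this difference over genes was -0.38 for nKO 4 and 0.54 for control 1. In the lowest quartile these values were 0.21 and -0.21. Control 3 stood at -0.28 in the highest quartile and 0.18 in the lowest against the other controls, and control 2 at -0.21 and 0.12. For several results below the value without nKO 4, control 1 or both is given as well.

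The targeted gene was lower in every nKO animal than in any control. Atad3a (NCBI gene 108888; chr4:155740640-155761124) stood at 11.5, 11.7, 14.4, 8.95 and 10.8 CPM in nKO libraries 1 to 5, against 26.6, 22.5, 24.5, 22.5 and 22.2 CPM in control libraries 1 to 5. The highest nKO library lay well below the lowest control, with no overlap. By edgeR's quasi-likelihood test this was a log2 fold change of -1.04 (SE 0.12, 95% interval -1.30 to -0.78, adjusted p = 0.00634), which left 48.5% of the control level (95% interval 40.5% to 58.1%). It was the only 1 of the 10 genes past a 5% false discovery rate, where 0.0139% of all tested genes were past it. On the TPM scale its transcript NM_179203 averaged 15.6 ± 1.88 TPM in nKO and 30.2 ± 2.09 TPM in controls (SD, n = 5 each; exact two-sided permutation test, p = 0.00794, the smallest this design can give). Bulk tissue does not separate fewer cells that express a gene from less RNA per cell, and reads outside a deleted part of the gene do not report the deletion.

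The authors' deposited table of a score for 22 genes contains Atad3a and none of the other 9 genes. There Atad3a ranged from -1.49 to -0.648 in nKO and from 0.648 to 1.10 in controls. The scale of this score is not stated, so the values give directions only.

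**Figure D1:**
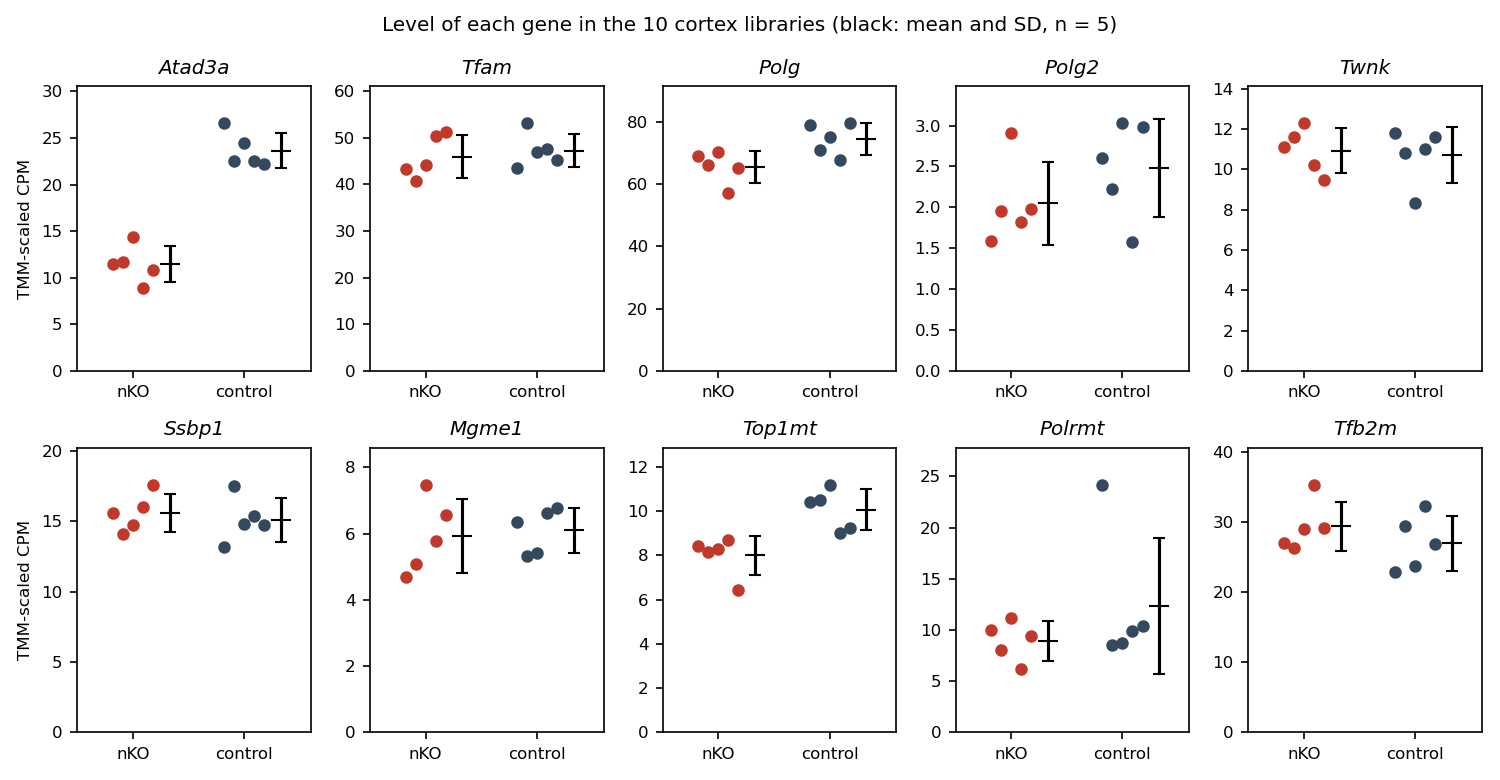
TMM-scaled CPM (y axis, linear from 0) of each of the 10 genes in the 5 nKO (red) and 5 control (dark blue) libraries, 1 point per animal in the order of library number, with the mean and SD in black. Only Atad3a (8.95 to 14.4 against 22.2 to 26.6 CPM) and Top1mt (6.43 to 8.68 against 9.02 to 11.2 CPM) show no overlap, and the Polrmt panel has 1 control library at 24.2 CPM.

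RNA of Tfam, which encodes the main packaging protein of mitochondrial DNA, was level between the groups within its error. Tfam (NCBI gene 21780; chr10:71225468-71238328) stood at 43.2, 40.6, 44.2, 50.3 and 51.1 CPM in nKO libraries 1 to 5, against 43.4, 53.1, 46.9, 47.5 and 45.3 CPM in controls. The groups overlap over most of their ranges. In log2 terms the difference was -0.04, with an SE of 0.09, a 95% interval of -0.23 to 0.14 and an edgeR adjusted p of 0.959. That interval corresponds to 85.3% to 110% of the control level.

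Of the 6 genes for replication proteins none passed 5% in either direction. Polg, the catalytic subunit of polymerase gamma (NCBI gene 18975; chr7:79446231-79467911), stood at 69.0, 66.1, 70.4, 57.0 and 65 CPM in nKO libraries 1 to 5, against 78.9, 70.8, 75.2, 67.8 and 79.5 CPM in controls. The nKO libraries lay in the lower part, and 2 of them lay within the control range. In log2 terms the difference was -0.18, with an SE of 0.08 and a 95% interval of -0.35 to -0.01. The edgeR adjusted p was 0.82. Without nKO 4, the lowest library, and control 1 the difference was -0.13. On log2(TPM + 0.1) by limma it was -0.12 (95% interval -0.30 to 0.06). The accessory subunit Polg2 (NCBI gene 50776; chr11:106768204-106779537) had few reads, 26 to 49 estimated counts in nKO and 27 to 74 in controls. Its level was 2.05 ± 0.505 CPM in nKO and 2.49 ± 0.601 CPM in controls (SD, n = 5 each), and its log2 fold change of -0.28 had a wide 95% interval of -0.76 to 0.19 (edgeR adjusted p = 0.86). Without nKO 3 it was -0.45, without control 3 it was -0.20, and without controls 1 and 3 it was -0.15.

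Twnk, which encodes the helicase Twinkle (NCBI gene 226153; chr19:45005663-45012764), stood at 11.1, 11.6, 12.3, 10.2 and 9.50 CPM in nKO libraries 1 to 5, against 11.8, 10.8, 8.36, 11 and 11.6 CPM in controls. Every nKO library lay above the lowest control, control 3, and the rest overlap. In log2 terms the difference was 0.03, with an SE of 0.12 and a 95% interval of -0.23 to 0.29. Ssbp1, which encodes the protein that coats unwound strands at the fork (NCBI gene 381760; chr6:40471414-40481823), averaged 15.6 ± 1.34 CPM in nKO and 15.1 ± 1.55 CPM in controls (SD, n = 5 each), with a log2 fold change of 0.05 (SE 0.10, 95% interval -0.17 to 0.27). Mgme1, an exonuclease that trims displaced ends of the new strand (NCBI gene 74528; chr2:144270904-144281227), averaged 5.92 ± 1.12 CPM in nKO and 6.10 ± 0.680 CPM in controls (SD, n = 5 each). In log2 terms the difference was -0.04, with an SE of 0.15 and a 95% interval of -0.36 to 0.28. All 3 had edgeR adjusted p from 0.962 to 0.981.

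Top1mt, the topoisomerase that relaxes supercoils in mitochondrial DNA, came nearest to a difference among these 9 genes. Top1mt (NCBI gene 72960; chr15:75657033-75678800) stood at 8.42, 8.16, 8.31, 8.68 and 6.43 CPM in nKO libraries 1 to 5, against 10.4, 10.5, 11.2, 9.02 and 9.26 CPM in controls. The CPM of the groups did not overlap, and nKO 5 lay apart below the other nKO libraries. Ranges without overlap occurred in 2 of the 10 genes, Atad3a and Top1mt, and in 1.38% of all tested genes; both were lower in nKO, as were 0.675% of all tested genes. In log2 terms the difference was -0.33, with an SE of 0.12 and a 95% interval of -0.58 to -0.08, and it did not pass adjustment over all genes (edgeR adjusted p = 0.82). Without nKO 5 it was -0.26. On the TPM scale, where ranges without overlap occurred in 1 of the 10 genes (Atad3a) and in 2.56% of all tested genes, the groups overlapped for Top1mt, with 10.6 to 16.1 TPM in nKO and 13.8 to 18.5 TPM in controls, and the limma estimate on log2(TPM + 0.1) was -0.25 (95% interval -0.50 to 0.01). An unadjusted p under 0.05 occurred in 2 of these 9 genes, Polg and Top1mt, and in 5.65% of all tested genes; these 2 were singled out after their values were seen.

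Of the genes for transcription proteins neither passed 5%, and the value of Polrmt depended on 1 library. Tfb2m, which helps the polymerase open the promoter (NCBI gene 15278; chr1:179528052-179546305), stood at 27.0, 26.3, 29.0, 35.3 and 29.1 CPM in nKO libraries 1 to 5, against 22.8, 29.4, 23.7, 32.2 and 26.8 CPM in controls. The groups overlap, and nKO 4 was the highest library. The log2 difference of 0.12 had an SE of 0.11 and a 95% interval of -0.13 to 0.37 (edgeR adjusted p = 0.87), and it was -0.02 without nKO 4 and control 1.

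Polrmt, the mitochondrial RNA polymerase (NCBI gene 216151; chr10:79736125-79746604), stood at 10, 8.05, 11.2, 6.16 and 9.37 CPM in nKO libraries 1 to 5, against 24.2, 8.57, 8.69, 9.89 and 10.4 CPM in controls. Control 1 was more than any other library of either group, and the other 4 controls lay within the nKO range. The log2 difference of -0.46 had an SE of 0.29 and a 95% interval of -1.09 to 0.17 (edgeR adjusted p = 0.839). Without control 1 it was -0.07 (SE 0.16), and without nKO 4 and control 1 it was 0.03 (SE 0.13).

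The effective length that the authors' quantification gave Polrmt also stood apart in these libraries. It was 3424 bases in control 1 and 1473 bases in nKO 4, against 1835 to 2306 bases in the other 8 libraries. The ratio of the longest to the shortest, 2.32, lay at the 98.4th percentile of tested genes, whose median ratio was 1.14. Polrmt transcripts had 60.9% GC, the 97.0th percentile of the tested genes with a value. Divided by these lengths, the level of Polrmt was 12.2, 9.52, 13.4, 11.2 and 12.8 TPM in nKO libraries 1 to 5, against 17, 12, 12.5, 12.5 and 12.7 TPM in controls. Control 1 was still the highest, by a smaller margin. With effective lengths as offsets in edgeR the log2 fold change was -0.25 (SE 0.14, adjusted p = 0.578), and on log2(TPM + 0.1) by limma it was -0.17 (95% interval -0.43 to 0.09). The part of base composition in this result was not tested.

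**Figure D2:**
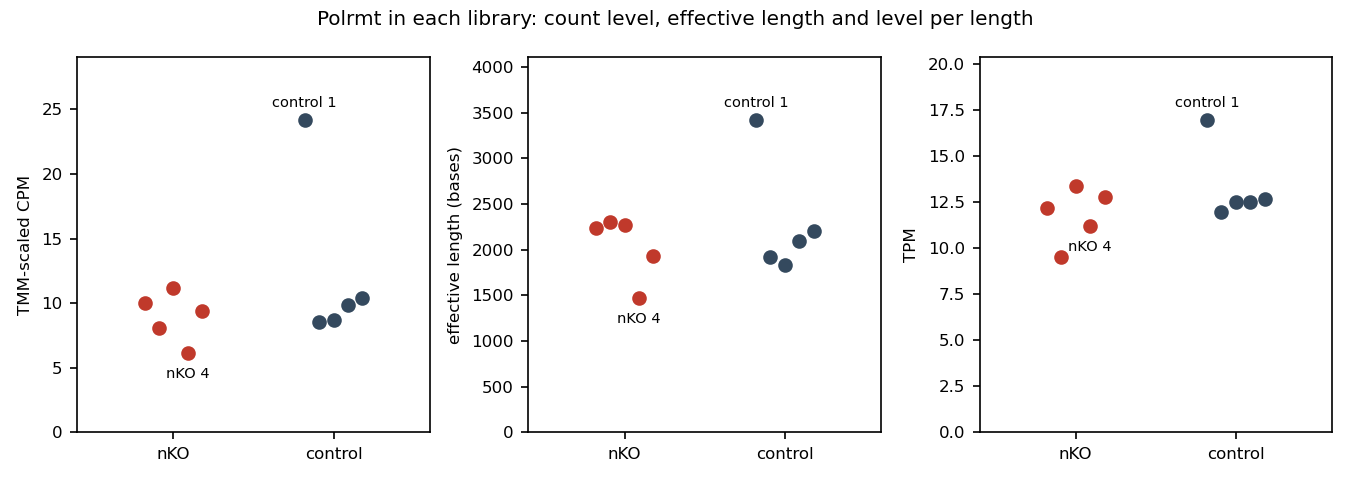
Polrmt in the 5 nKO (red) and 5 control (dark blue) libraries, as TMM-scaled CPM (left), as effective length in bases (middle) and as TPM (right), each on a linear axis from 0 with 1 point per animal. Control 1 is the highest point in all 3 panels (24.2 CPM, 3424 bases, 17 TPM), and nKO 4 is the lowest in CPM (6.16) and in effective length (1473 bases).

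Atad3a and Top1mt were the other genes of the 10 in the highest GC quartile, at 56.8% and 55.2% GC, and their effective lengths also ran from nKO 4 (1729 and 1445 bases) up to control 1 (2264 and 1813 bases). For Atad3a the difference held without both libraries, at a log2 fold change of -0.93 (SE 0.11, edgeR adjusted p = 0.00824), and with effective length offsets, at -1.0 (adjusted p = 0.000147). For Top1mt the same fits gave -0.36 and -0.30, neither of them past 5% (adjusted p = 0.508 and 0.485). The lowest GC quartile held Tfam, Ssbp1 and Tfb2m, at 44.9%, 42.8% and 42.5% GC. In all 3 of these genes the effective length was shortest in control 1, the reverse of the GC-rich genes.

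The 9 genes other than Atad3a had a median log2 fold change of -0.04, with 6 lower and 3 higher in nKO; over all tested genes the median was -0.01 and 52.2% were lower. For 7 of the 9, every gene except Polg2 and Polrmt, the 95% interval lay within 1.5-fold of no change. Top1mt met this narrowly, with a lower end at 66.9% of the control level. Without nKO 4 its log2 fold change was -0.37 (SE 0.12).

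**Figure D3:**
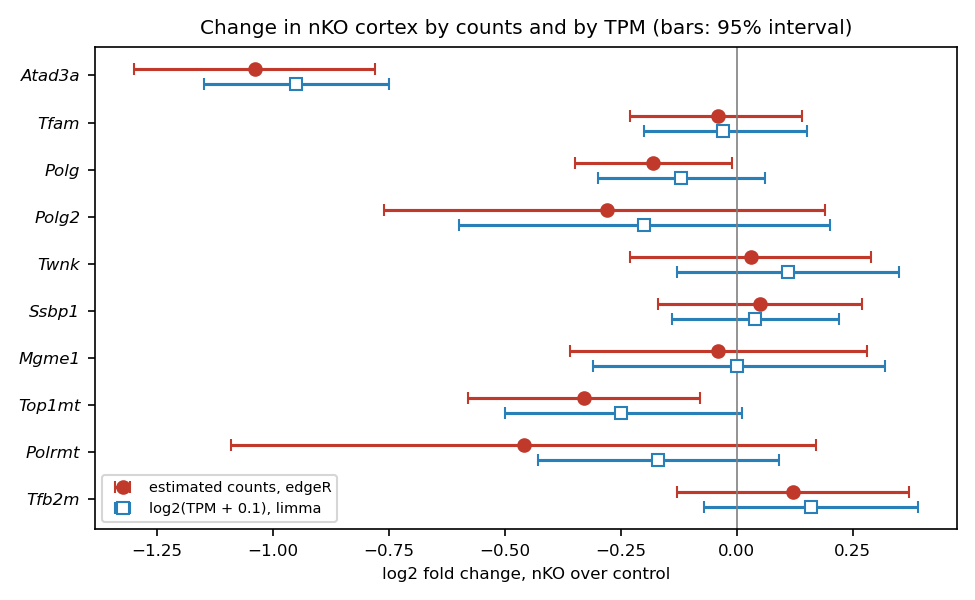
log2 fold change of nKO over control (x axis) for the 10 genes from estimated counts by edgeR (filled red circles) and from log2(TPM + 0.1) by limma (open blue squares), with 95% intervals as bars. Atad3a lies at -1.04 by counts and -0.95 by TPM, clear of 0, while Polrmt moves from -0.46 with a wide interval by counts to -0.17 by TPM.

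Levels per length placed Atad3a among the most abundant of these transcripts in controls and in the middle in nKO. In nKO the order of mean TPM was Tfb2m (34.1 ± 3.30), Ssbp1 (31.6 ± 2.04), Tfam (31.3 ± 2.0), Polg (24.9 ± 1.62), Atad3a (15.6 ± 1.88), Top1mt (13.3 ± 1.94), Polrmt (11.8 ± 1.51), Twnk (9.50 ± 0.770), Mgme1 (5.73 ± 1.06) and Polg2 (4.09 ± 0.929; all SD, n = 5). In controls it was Tfam (31.9 ± 2.68), Ssbp1 (30.9 ± 3.07), Tfb2m (30.7 ± 4.94), Atad3a (30.2 ± 2.09), Polg (27.1 ± 2.13), Top1mt (15.7 ± 2.07), Polrmt (13.3 ± 2.06), Twnk (8.81 ± 0.989), Mgme1 (5.68 ± 0.747) and Polg2 (4.74 ± 1.09; all SD, n = 5). The ranges of the top 3 genes overlapped in nKO, and those of the top 5 overlapped from neighbour to neighbour in controls. In both groups Top1mt overlapped Polrmt and Mgme1 overlapped Polg2, while Twnk lay above Mgme1 without overlap. Twnk and Polg2 stood several-fold below Tfam in both genotypes, in RNA and not in protein. For Polg2 this level came from non-coding isoforms and unmatched transcripts. Its protein-coding transcript was listed at 0 in all 10 libraries.

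**Figure D4:**
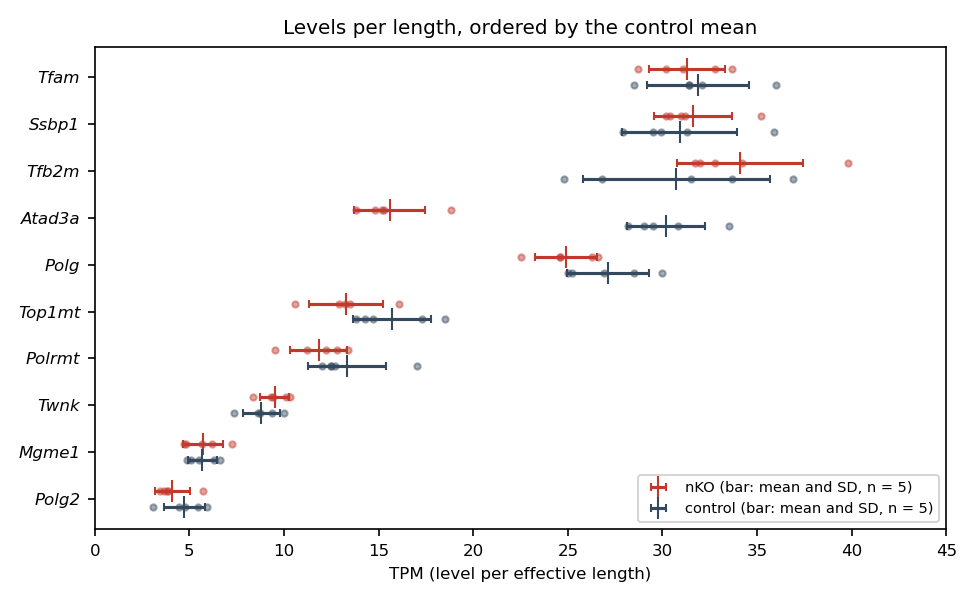
TPM (x axis, linear from 0) of the 10 genes in nKO (red) and control (dark blue) libraries, with 1 dot per animal and the mean and SD as bars; genes run down the page by their control mean. Atad3a is at 30.2 TPM beside Tfam, Ssbp1 and Tfb2m in controls and at 15.6 TPM near Top1mt in nKO; the other genes keep nearly the same place.

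Transcript tables added detail on isoforms, whose reads are divided by inference and are uncertain where isoforms are alike. RefSeq accessions matched 27 transcripts to the 10 genes, of which 17 passed the count filter. None of the 17 passed 5% among 22343 transcripts tested with edgeR, where 0% of all transcripts passed it and 3.6% had an unadjusted p under 0.05, as did 3 of the 17, of Atad3a, Polg and Top1mt. Atad3a has 1 transcript in the files, with the same reads as its gene, and it was not called here: the log2 fold change was -1.05 (SE 0.13) and the edgeR adjusted p 0.136. The predominant Polg transcript, NM_017462, held 87.2% to 95.6% of the gene's reads in nKO and 89.1% to 96.6% in controls. The predominant Top1mt transcript, NM_028404, held 90.0% to 100% in nKO and 97.5% to 100% in controls.

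Mgme1 and Polg2 had the least settled isoforms. For Mgme1, NM_028984 held 12.2% to 34.9% of the gene's reads in nKO and 6.80% to 100% in controls, and NM_001355688 held 44.5% to 85.1% in nKO and 0% to 84.8% in controls. The control libraries thus spanned nearly the whole range for both isoforms. The edgeR estimate for NM_028984 was -1.37 (SE 0.61, adjusted p = 1.0). For Polg2, the protein-coding transcript NM_015810 was listed at 0 in all 10 libraries, and the gene's reads were given to 3 non-coding isoforms and to transcripts whose accession had no match, which held up to 83.5% of the gene's reads in nKO and up to 70.8% in controls. For Ssbp1 the share without a match reached 38.5% in nKO and 46.0% in controls.

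Genes next to Atad3a were examined because they share its chromosomal region. Of 5 tested genes between 6.76 kb and 44.2 kb away, none passed 5% (edgeR adjusted p from 0.820 to 0.922), and 1 of them, Tmem88b, had an unadjusted p under 0.05, as did 5.65% of all tested genes. Ssu72, a phosphatase of RNA polymerase II, differed by -0.08 in log2 terms (SE 0.07), and Fndc10 by -0.10 (SE 0.14). On the other side Vwa1, a matrix protein gene, had -0.27 (SE 0.19), Tmem88b had 0.31 (SE 0.12) and Mrpl20, a protein of the mitochondrial ribosome, had -0.18 (SE 0.08).

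The genes whose pattern over the 10 libraries was most like that of Atad3a were ranked by the root mean square difference between centred log2 CPM values, among 13726 genes with a mean of at least 1 CPM. Fam155a, which encodes a partner of the NALCN sodium leak channel, came first with a difference of 0.21, against a median of 0.58 over all these genes. It stood at 56.4 to 72.4 CPM in nKO and 97.3 to 116 CPM in controls, and it was the other gene past 5% (log2 fold change -0.73, SE 0.08; edgeR adjusted p = 0.00634). Etfb, a subunit of the flavoprotein that passes electrons from fatty acid oxidation to the respiratory chain, came second with 0.29 and overlapped between groups, at 5.68 to 9.14 CPM in nKO and 8.87 to 14.3 CPM in controls. Isoc2b came next with 0.31. Among the nucleoid genes the nearest was Top1mt, with 0.41 at rank 172, and the farthest was Tfb2m, with 0.66 at rank 11240. This ranking is a description of the 10 libraries.

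The wider set of genes around mitochondrial DNA was read from 5 lists, and none of their tested members passed 5% in either direction by edgeR. An unadjusted p under 0.05 occurred for 1 of 14 tested genes of nucleotide supply (Suclg1, 7.14%) and 1 of 9 nucleoid partners (Samm50, 11.1%). It occurred for 0 genes of the other 3 lists, against 5.65% of all tested genes. With 1 gene in each, the shares of the 2 lists are not read as differing from that background. Among other enzymes of replication and repair, 12 of 13 listed genes were tested, with 9 lower and 3 higher and a median log2 fold change of -0.14, or -0.08 without nKO 4 and control 1, -0.09 without nKO 5 and -0.07 on log2(TPM + 1). Over all tested genes 52.2% were lower. On log2(TPM + 0.1) the median shift of the log2 fold change over genes was 0.053 against the edgeR fit. The part of this shift in the TPM medians of the lists was not tested. The DNA glycosylases Ogg1, at 2.66 ± 0.467 CPM in nKO and 3.43 ± 0.547 CPM in controls, and Mutyh, at 0.655 ± 0.175 CPM in nKO and 0.908 ± 0.244 CPM in controls (SD, n = 5 each), had the smallest p of the list. Their log2 fold changes were -0.37 (SE 0.17, edgeR adjusted p = 0.820) and -0.47 (SE 0.27, adjusted p = 0.826). Without nKO 4 and control 1 the value for Mutyh was -0.22, and without controls 1 and 3 that for Ogg1 was -0.23.

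Genes that supply deoxynucleotides to mitochondria had 11 of 14 tested members lower and a median of -0.07, or -0.12 without nKO 4 and control 1, -0.02 without control 3 and -0.02 on log2(TPM + 1). Suclg1, a subunit of succinate-CoA ligase, stood at 68.8 ± 4.22 CPM in nKO and 79.4 ± 8.26 CPM in controls (SD, n = 5 each), with a log2 fold change of -0.21 (SE 0.08, edgeR adjusted p = 0.82). Slc25a33, a pyrimidine nucleotide carrier, had -0.21 (SE 0.11), or -0.13 without nKO 4 and control 1 and -0.06 without controls 1 and 3. Mitochondrial transcription and RNA processing had 15 of 25 lower and 10 higher, with a median of -0.02, or -0.09 without nKO 4 and control 1, -0.07 without control 1 and 0.03 without control 2. Its lowest p belonged to Pde12, an exonuclease that removes adenines from mitochondrial RNA, at -0.15 (SE 0.08), and to Elac2, which cuts the 3′ ends of tRNAs, at -0.11 (SE 0.08), or -0.06 without nKO 4 and control 1.

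Membrane, protease and chaperone partners of nucleoids had 5 of 9 lower and 4 higher, with a median of -0.0045, or -0.05 without nKO 4 and control 1 and 0.02 on log2(TPM + 1). Samm50, a sorting and assembly protein of the outer membrane, stood at 71.6 ± 4.44 CPM in nKO and 80.4 ± 4.57 CPM in controls (SD, n = 5 each; log2 fold change -0.17, SE 0.07; edgeR adjusted p = 0.82). Lonp1, the matrix protease that degrades TFAM, had -0.17 (SE 0.10), or -0.07 without nKO 4 and control 1. Regulators of mitochondrial biogenesis had 2 of 8 lower and 6 higher, with a median of 0.07, or 0.04 without control 3 or control 5 and 0.11 without control 2. None of the 8 passed even without adjustment, and no difference between lists was tested. Ppargc1b, a coactivator of nuclear genes for mitochondrial proteins, stood at 56.4 ± 6.14 CPM in nKO and 48.9 ± 8.91 CPM in controls (SD, n = 5 each), a log2 fold change of 0.21 (SE 0.12), and Yy1, a zinc finger transcription factor, had 0.14 (SE 0.09), or 0.08 without nKO 4 and control 1 (edgeR adjusted p = 0.826 for both in all libraries). Transcript length and GC content move with these small differences: over all tested genes the median log2 fold change was -0.07 in the shortest quartile of length and 0.05 in the longest, and 0.02 in the lowest quartile of GC content and -0.09 in the highest. Their part in the list medians was not tested. The counts of lower and higher genes in each list are from all libraries. Without nKO 4 and control 1 more genes were lower in nucleotide supply, transcription and RNA processing, and nucleoid partners. Fewer biogenesis regulators were then lower.

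**Figure D5:**
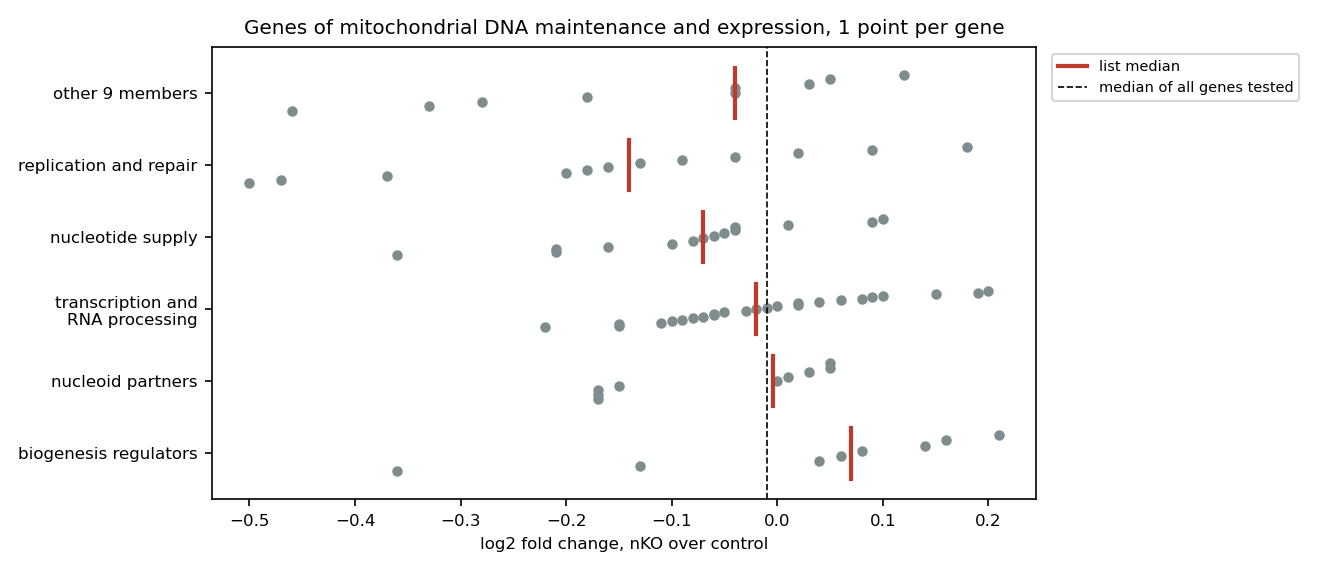
log2 fold change of nKO over control (x axis) for each tested gene of the 5 lists and for the 9 genes other than Atad3a, 1 point per gene (the vertical spread within a row only separates points). Red bars mark the list medians, which run from -0.14 for replication and repair (-0.08 without nKO 4 and control 1) to 0.07 for biogenesis regulators, and the dashed line marks the median of all tested genes at -0.01.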

How the data were processed

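Salmon, bcl2fastq and DESeq2 are named, without versions or roles, in the submitters' processing notes, with the build mm10. Per the file headers, the authors deposited estimated counts, TPM and effective lengths per gene and per transcript, 1 library per file; a further deposited table gives a score for 22 genes, of unstated scale. Here the estimated counts, rounded to integers, were filtered with filterByExpr at a minimum count of 10 and a total of 15 and scaled by TMM. Groups were compared in R 4.3.3 with edgeR 4.0.16 (robust quasi-likelihood F test), adjusted by Benjamini-Hochberg over all features tested, with a 5% threshold. Each SE is the absolute log2 fold change over the root of its F statistic. CPM are TMM-scaled. TPM were tested with limma 3.58.1 on log2(TPM + 0.1), where fold changes of low genes are understated. On that scale log2 fold changes shifted by a median of 0.053 over genes against the edgeR fit. DESeq2 1.42.0 was an alternative. The tests were also run on simulated counts, drawn without shifts by base composition or effective length. That check does not cover such shifts between libraries.

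The 10 genes and the lists were chosen with earlier results of these data known. Named are the 10 genes, the 2 genes with the smallest p of each list, the nearest tested neighbours of Atad3a (3 on each side, of which 1 is not reported here) and the 3 genes nearest to it in pattern. GC content came from GENCODE M21 transcripts matched by RefSeq accession (96.7% of tested genes, all 10 members), and positions from RefSeq on GRCm38.p6. The labels give no batch, and replicate numbers only name libraries.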

Additional observations from a re-analysis of the deposited data

Results flagged for a closer look

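Within groups of 5 libraries, 1 library lay far from the other 4 in 3 of 20 comparisons (10 genes in each group). The rule was Dixon's test with a critical value of 0.71, whose nominal rate is about 1 in 20. Its rate over all tested genes in these libraries was not computed, so no excess is read from this count. Top1mt in nKO 5 was the lowest of its group at 6.43 CPM. Polrmt in control 1 was the highest of its group at 24.2 CPM. Twnk in control 3 was the lowest of its group at 8.36 CPM.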

How the results depend on the processing

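Across 23 alternatives Atad3a was lower in nKO and past 5% each time, with log2 fold changes from -1.15 to -0.91 (adjusted p from 1.89e-12 to 0.0471), and it was the 1 gene of the 10 called in each. The DESeq2 Wald test called 5 genes in all (Atad3a, Dusp11, Fam155a, Malat1 and Slc18b1), where edgeR called 2; leaving out 1 library gave 2 to 3 (Hbb-bt was added without nKO 1). No setting called another of the 9 genes, and 190 of their 205 alternative values kept their sign. Leaving out 1 library gave -0.09 to 0.0024 for Tfam, -0.15 to 0.03 for Mgme1, -0.05 to 0.08 for Twnk, -0.00047 to 0.10 for Ssbp1 and -0.57 to -0.07 for Polrmt. The sign also turned for Mgme1 on TPM (0.0012 with a pseudocount of 0.1, 0.002 with 1) and for Ssbp1 with effective length offsets (-0.02). On log2(TPM + 0.1) the median shift over genes was 0.053 against the edgeR fit. Without nKO 4 and control 1 the values were 0.03 for Polrmt, -0.01 for Ssbp1 and -0.02 for Tfb2m; without controls 1 and 3 they were -0.03 for Twnk, -0.02 for Ssbp1 and -0.0045 for Tfb2m. The median of the 9 genes ran from -0.15 to -0.01 when 1 library was left out, with -0.15 without nKO 3, and that of nucleotide supply was -0.12 without nKO 4 and control 1; that of transcription and RNA processing changed sign, from -0.09 to 0.03 over all settings, as did that of nucleoid partners, from -0.06 to 0.02. The cause was not tested. Sums of transcripts gave no value for Polg2 and Ssbp1, whose transcripts were not all matched. No member transcript was called under any of 16 alternatives. No paired analysis was possible because the labels give no numbers shared between the groups. The number of animals and the low counts of Polg2 limit precision.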
